A study of Mus musculus with 9 samples.

Results

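Cytosolic ribosomal protein and elongation factor genes were examined in mouse hepatocytes that had passed through a liver progenitor state. The members were taken by symbol: Rpl or Rps with a number, then optionally a letter and a further number, without the Rps6k kinases. Added to them were the stalk genes Rplp0, Rplp1 and Rplp2, Rpsa, and the elongation factor genes Eef1a1, Eef1b2, Eef1g and Eef2. This gave 88 of the 21878 symbols in the count table: 43 large subunit genes, 31 small subunit genes, 3 stalk genes, 4 elongation factor genes, and 7 paralogs or retrocopies (Rpl3l, Rpl7l1, Rpl10l, Rpl22l1, Rpl32l, Rpl39l and Rps27l). The first 3 classes, 77 genes, are called core ribosomal proteins here.

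The series has 9 samples in 3 groups of 3, all from C57BL/6 mice: KO-ATP7B (Atp7b-/- cells given ATP7B by lentivirus), KO-GFP (Atp7b-/- cells given GFP in its place) and WT-GFP (wild type, given GFP). All groups shared the same history: primary hepatocytes were reprogrammed with growth factors and small molecules, transduced, redifferentiated for 3 weeks, and given CuCl2 for 24 hours, at 100 µM per the labels' protocols and 100 mM per their treatment field. For the wild type, ATP7B is named as the vector in the growth protocol and GFP in titles and design text, and the title is followed here. The count columns are numbered without group names, and only those of WT-GFP replicates 1 and 2 could be tied to a sample, through files of their own. All values below are from these 2 libraries. The other 7 count columns were not used, so no genotypes or vectors are compared and the effect of copper is not measured.

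Replicate 1 held 18532457 counts and replicate 2 held 17821682 counts. Of the hepatocyte markers, Alb was at 953 and 906 FPKM (counts scaled to gene length and library total) and Hnf4a at 50.1 and 50.6 FPKM, whereas Cps1 was at 1.21 FPKM in each library and Tat below 1 FPKM. Of 8 progenitor and biliary markers, Cd24a (668 and 629.6 FPKM), Spp1 (585 and 624 FPKM) and Krt19 (369.8 and 318.1 FPKM) were high, whereas Sox9, Afp, Krt7, Epcam and Prom1 had means of 17.5, 12.9, 10.4, 2.04 and 1.56 FPKM. Of 20 markers of lymphocytes, macrophages, stellate and endothelial cells, Cd68 and Csf1r, both macrophage genes, alone exceeded 1 FPKM. Cd68 was at 14.8 and 19.5 FPKM. No label ties the replicates to separate animals or cultures, so differences between them may be technical. With 1 library on each side, the exact binomial p-values below measure departure from counting error only and hold no spread between samples.

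Ribosomes consist of a small subunit, which reads the messenger RNA, and a large subunit, which joins amino acids. Each carries a set of proteins present in equal numbers, apart from the stalk. The stalk proteins P0, P1 and P2 recruit the elongation factors: eEF1A brings the aminoacyl-tRNA, eEF1B subunits recharge eEF1A with GTP, and eEF2 moves the ribosome along. In mammals, mRNAs of these genes typically begin with a C followed by an uninterrupted run of pyrimidines, the 5′ terminal oligopyrimidine (TOP) motif, through which mTORC1 and Larp1 control their translation.

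The start sites of the members were examined for this pyrimidine run, which the choice by symbol did not use. RefSeq promoter sequences (GRCm38.p6) matched 67 of the 88 members with 79 start sites, 10 members having several. The 30 bases around the start are shown for 7 of the 13 core genes with the TOP motif at the annotated start. These 7 were picked by hand as examples. Also shown are Eef1a1, the most abundant member, and 2 paralogs and Eef2, which lack the motif at that position. Base 16 is the annotated start, and capitals mark the longest run of C and T.

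Rps6 (chr4:86857353-86857382, minus strand): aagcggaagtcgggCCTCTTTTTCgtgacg

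Rplp2 (chr7:141447636-141447665, plus strand): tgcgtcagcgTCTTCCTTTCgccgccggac

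Rps27 (chr3:90213634-90213663, minus strand): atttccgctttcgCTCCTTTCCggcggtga

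Rpl35 (chr2:39005117-39005146, minus strand): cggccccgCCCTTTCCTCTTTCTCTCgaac

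Rpl15 (chr14:18270972-18271001, minus strand): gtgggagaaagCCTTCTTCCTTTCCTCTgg

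Rps10 (chr17:27635230-27635259, minus strand): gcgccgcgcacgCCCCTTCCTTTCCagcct

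Rpl14 (chr9:120571502-120571531, plus strand): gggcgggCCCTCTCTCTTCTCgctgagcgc

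Eef1a1 (chr9:78481710-78481739, minus strand): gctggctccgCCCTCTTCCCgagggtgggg

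Eef2 (chr10:81176616-81176645, plus strand): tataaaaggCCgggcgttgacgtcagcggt

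Rpl7l1 (chr17:46782642-46782671, minus strand): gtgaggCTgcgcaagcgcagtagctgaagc

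Rpl10l (chr12:66284387-66284416, minus strand): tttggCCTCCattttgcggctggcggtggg

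A C at the annotated start followed by at least 4 bases of C or T stood at 13 of 70 start sites (18.6%) of the core and elongation factor genes. It stood at 823 of all 32851 RefSeq start sites (2.51%). Of the 9 start sites of paralogs and retrocopies 1 had it, that of Rpl32l. Anywhere within the 30 bases, a C followed by at least 4 bases of C or T was common. It was found at 40 of the 70 core and elongation factor start sites (57.1%) and at 36.4% of all start sites. The same held for 6 of the 9 start sites of paralogs and retrocopies. The longest pyrimidine run within the 30 bases had a median of 6 bases at the core and elongation factor start sites and 4 bases at all start sites. In the Eef1a1 sequence the run crosses the annotated start, and the base at the start is not a C. In Eef2 it is 2 bases long. Annotated starts can lie some bases from the start used in these cells, so a missing run says only that these letters are not at the annotated position.

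The whole promoter windows, from 250 bases before the start to 50 after it, were searched on both strands for CCGGAAG, the core sequence bound by ETS factors such as GABPA, and for AAGATGG, the core bound by YY1. Neither motif contains the other. CCGGAAG was found in 26 of 70 windows of core and elongation factor genes (37.1%) and in 8.86% of all windows. AAGATGG was found in 11 of 70 (15.7%) and in 6.34% of all windows. CACGTG, the E-box bound by MYC, was found in 9 of 70 (12.9%) and in 7.15% of all windows. On the strand of the gene, TATAAA or TATATA stood within the stretch from 50 to 11 bases before the start in 3 of 70 windows (4.29%) and in 3.37% of all windows. The TATAAA in the Eef2 sequence above reaches closer to the start than this stretch and is not counted. The windows were not matched for base composition, and a match is a description and not a binding site. Annotated 5′ untranslated regions had a median of 97 bases in the 81 core and elongation factor genes and 161 bases in 19236 protein-coding genes. The median coding length was 468 bases and 1221 bases.

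Of the total, members took 4.43% in replicate 1, with a Wilson interval at 95% of 4.43 to 4.44%, and 4.34% in replicate 2, from 4.33 to 4.35%. These intervals cover counting error only. Per length they weighed more: they held 11.6% and 11.4% of the summed FPKM. Of the 88 members 84 reached 10 FPKM and 79 reached 100 FPKM, against 27.1% and 2.93% of all 21878 symbols. The members filled 37 of the 100 highest ranks by FPKM. Their median was 434 FPKM, at 438 and 432 FPKM by library.

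**Figure D1:**
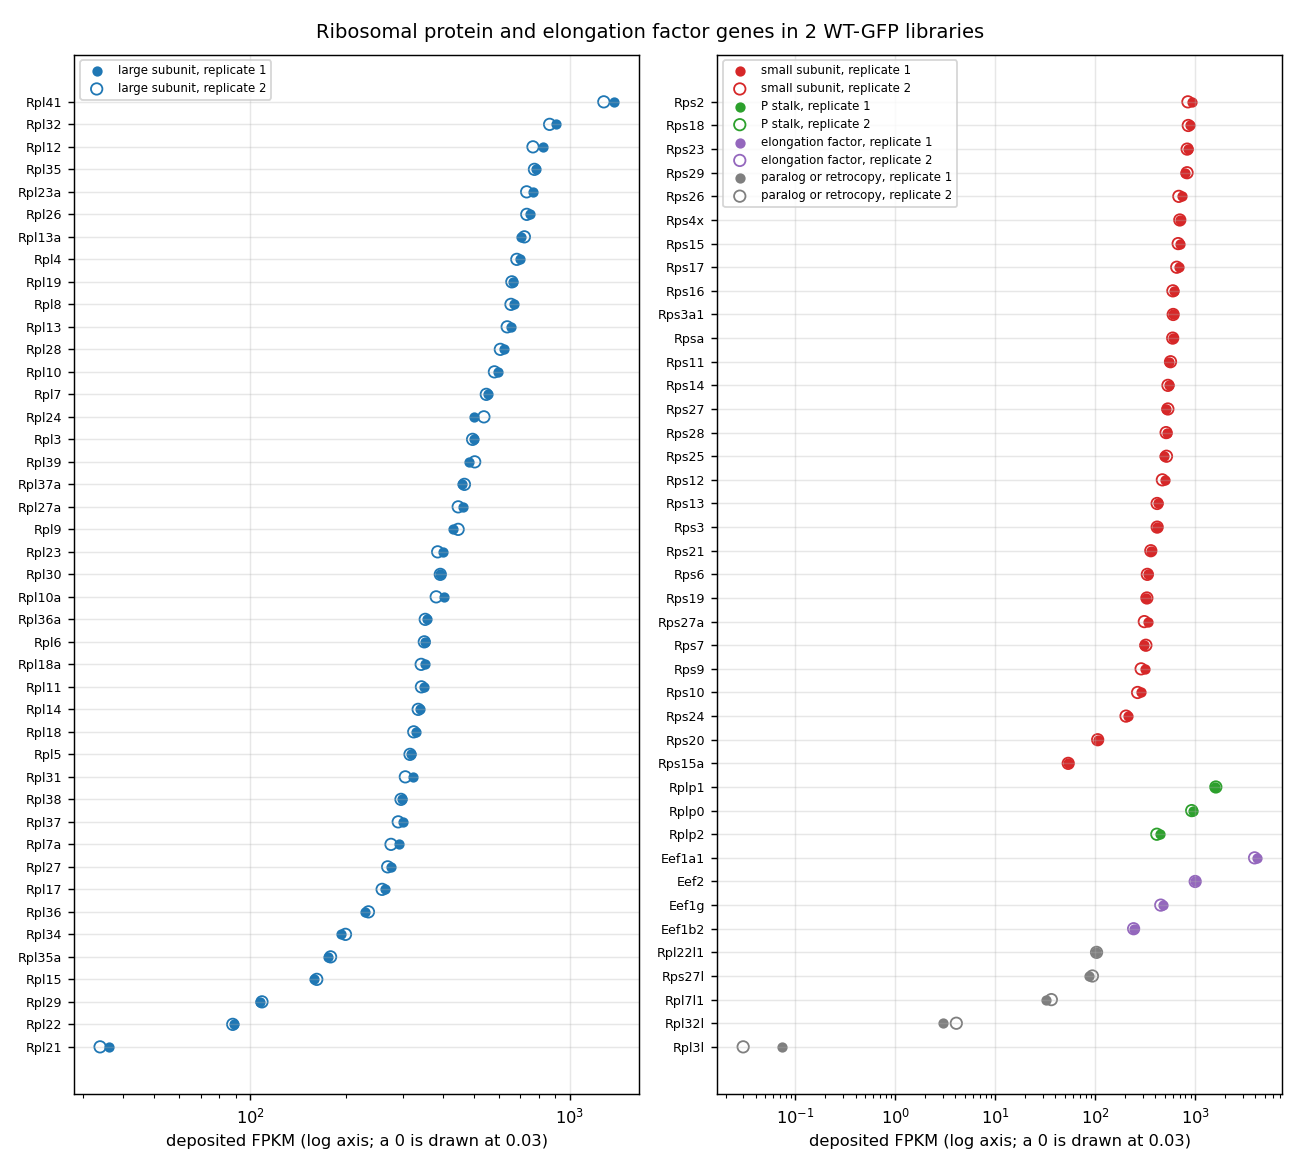
Deposited FPKM of the members with a count that are reported here, on a log axis, in WT-GFP replicate 1 (filled circles) and replicate 2 (open circles), by class. Most core genes lie between 200 and 1000 FPKM, the paired circles nearly coincide, and Rpl21, Rps15a and the paralogs trail to the left.

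Among the elongation factor genes Eef1a1 was highest in both libraries, followed by Eef2. Eef1a1 (ENSMUSG00000037742.14, chromosome 9, 78478449 to 78489151, minus strand, protein-coding, GRCm38) had 137334 and 125538 counts, or 4139.9 and 3935 FPKM, rank 3 of all symbols. Eef2 (chromosome 10, 81176631 to 81182498, plus strand) was at 997 and 1001 FPKM. The eEF1B subunit gene Eef1g (chromosome 19, 8967041 to 8978479, plus strand) was at 475 and 453 FPKM. Its partner Eef1b2 (chromosome 1, 63176825 to 63180486, plus strand), which carries the nucleotide exchange activity, was at 242 FPKM in each library. Eef1a1 was thus 17.1 and 16.2 times the level of Eef1b2 and 4.15 and 3.93 times that of Eef2. The libraries of neighbours in this order did not overlap. The order of Eef1g and Eef1b2 turned with the length used: the FPKM of Eef1b2 rests on 2.86 times its coding length, and per coding length Eef1b2 was above Eef1g. On that scale, added after the values were seen, Eef1a1 was 7.72 and 7.32 times the level of Eef1b2, 9.42 and 9.40 times that of Eef1g and 4.45 and 4.21 times that of Eef2.

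The stalk genes were expressed at unequal levels. Rplp1 (chromosome 9, 61913284 to 61914542, minus strand) was at 1567 and 1612 FPKM, the highest level among the core ribosomal proteins. Rplp0 (chromosome 5, 115559467 to 115563727, plus strand), the protein that anchors the stalk to the subunit, was at 959 and 924 FPKM. Rplp2 (chromosome 7, 141447370 to 141451585, plus strand), the partner of P1, was at 443 and 414 FPKM. Rplp1 was 3.54 and 3.90 times the level of Rplp2, although P1 and P2 act as a pair. With the length of the principal GENCODE transcript, the ratio was 5.04 and 5.55, and with coding lengths 2.63 and 2.90.

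Among the 43 large subunit genes the median was 393 FPKM, and 36 lay between 200 and 1000 FPKM. Rpl41, which encodes the smallest ribosomal protein, was highest, at 1372 and 1278 FPKM (chromosome 10, 128548114 to 128549305, minus strand). Rpl32 followed at 904 and 865 FPKM, Rpl12, which lies at the base of the stalk, at 824 and 767 FPKM, Rpl35 at 782 and 775 FPKM, and Rpl23a, which lies at the exit of the peptide tunnel, at 765 and 733 FPKM. Rpl12 and Rpl35 overlapped between libraries, whereas Rpl41, Rpl32 and Rpl23a overlapped with no other of these 5. Rpl3 and Rpl10, whose proteins lie close to the peptidyl transferase centre, were at 502 and 496 FPKM and at 598 and 581 FPKM. Rpl5 and Rpl11, whose proteins bind 5S rRNA and can restrain Mdm2, were at 319 and 316 FPKM and at 349.7 and 343 FPKM. The lowest were Rpl21 (36.1 and 33.9 FPKM), Rpl22 (88.8 and 88.2 FPKM), Rpl29 (108 and 109 FPKM), Rpl15 (158 and 162 FPKM) and Rpl35a (175 and 178 FPKM).

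Among the 31 small subunit genes the median was 525 FPKM, and 29 lay between 200 and 1000 FPKM. Rps2 (chromosome 17, 24718116 to 24721929, plus strand), whose protein lines the mRNA entry channel, was at 936 and 847 FPKM. Rps18 was at 895 and 854 FPKM, Rps23, a protein of the decoding centre, at 855 and 832 FPKM, and Rps29 at 786 and 831 FPKM. Rps2 overlapped with Rps18, and Rps2 and Rps18 with Rps23, so their order is not settled, while Rps29 lay below them in both libraries. Rps6, the ribosomal substrate of the S6 kinases, was at 334 and 333 FPKM. Rps3 was at 413 and 417 FPKM, and Rps27a, which is made as a fusion with ubiquitin, at 339.9 and 310.2 FPKM. The lowest were Rps15a (53.7 FPKM in each library), Rps20 (106 FPKM in each), Rps24 (211 and 204 FPKM), Rps10 (286 and 266 FPKM) and Rps9 (313 and 288 FPKM).

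The low end of this order moved with the gene length behind the FPKM. The deposited counts and FPKM gave whole-number gene lengths within 0.01 bases for 100% of the 15545 genes with a count. For core genes these lengths had a median of 1.66 times the coding length. In 6 genes the length exceeded the coding length by more than 4 times. Rps15a was divided by 5136 bases for a coding length of 390 bases, 13.2 times as long. Rps20 was divided by 3446 bases (9.65 times its coding length), Rps24 by 3432 bases (8.60 times), Rpl21 by 3002 bases (6.25 times), Rpl22 by 2343 bases (6.10 times) and Rpl41 by 449 bases (5.99 times). All but Rpl41 were among the 10 lowest core genes by deposited FPKM.

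CPM (counts scaled to the library total) per coding kilobase was computed as a second level per length, chosen after the deposited values had been seen. On this scale the core median was 751, Rps15a stood at 707, Rps20 at 1024, and Rps24 at 1781, among the 10 highest. Rpl21 remained the lowest at 219. Rpl41 stood at 7932, with a coding sequence of 75 bases within a counted length of 449 bases. With the length of the principal GENCODE transcript the core median was 441 FPKM, and Rps24 stood at 441 FPKM. Rps15a and Rps20 stayed low on that scale, at 53.3 FPKM, the lowest core level, and 98.7 FPKM. The SD of the log2 level over the 77 core genes was 0.95 with deposited FPKM and 0.67 per coding length. Within 2-fold of the median lay 64 genes with deposited FPKM and 71 per coding length. Across the 77 genes the 2 levels had a Spearman's rho of 0.65. The log2 ratio of counted to coding length and the log2 FPKM had a Pearson's r of -0.71. Genes are not independent replicates, and length enters the FPKM as its divisor, so these values are descriptions.

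**Figure D2:**
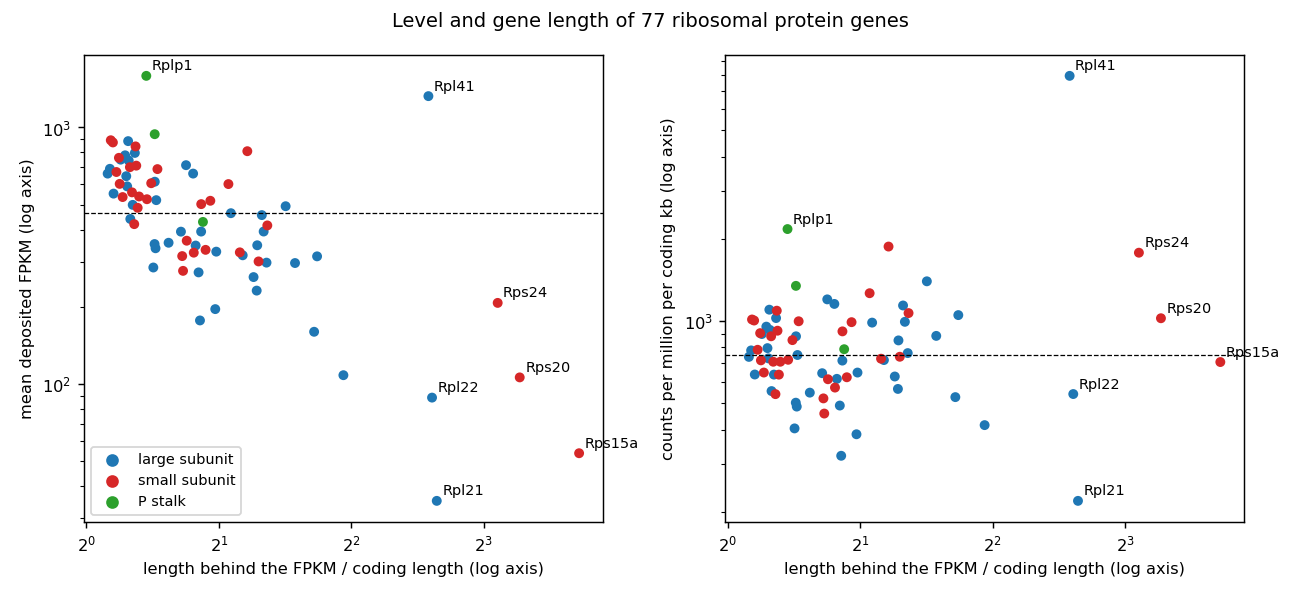
Core ribosomal protein genes by the ratio of the length behind the FPKM to the coding length (log axis), against mean deposited FPKM (left) and CPM per coding kilobase (right), both on log axes, with the median dashed. Rps15a, Rps20 and Rps24 lie far below the median on the left (54 to 207 FPKM, median 463) and at 707 to 1781 on the right (median 751). With principal transcript lengths, not drawn, Rps15a and Rps20 stay at 53.3 and 98.7 FPKM.

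Sequence shared with other genes is common in this family, because ribosomal protein genes have many processed pseudogenes. The share of each principal transcript's 50-base words that also occur in transcripts of other GENCODE genes was counted. The median over core genes was 49.0%, and the median number of other genes sharing a word was 10. For Rps27 98.6% of words were shared, for Rpl9 93.3% and for Rpl10 92.1%. Low shares were those of Rps3 (2.96%) and Rpl8 (7.86%). Rpl7a shared words with 120 other genes, all pseudogenes, and Rpl21 with 82, of which 81 are pseudogenes. Among the elongation factor genes the share was 64.3% for Eef1g and 59.2% for Eef1a1, but 7.86% for Eef2 and 5.98% for Eef1b2. The sources used here do not say how reads matching several genes were counted, so levels of members with a high share are uncertain. The ratios of Eef1a1 to Eef2 and to Eef1b2 given above carry the same uncertainty. Across the 77 core genes, the share had a Pearson's r of -0.20 and a Spearman's rho of -0.27 with the level per coding length, but 0.35 and 0.31 with the log2 level per principal transcript, so the sign depended on the length. The share and the level per principal transcript are both divided by the length of that transcript, so they are not independent. With words of 100 bases the median share was 34.2%. Its Pearson's r and Spearman's rho with the log2 level per principal transcript were then 0.19 and 0.14.

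The paralogs were far apart from each other. Rpl10l and Rpl39l, known from testis, had no counts in either library, which allows up to 0.162 and 0.168 CPM each. Rpl3l, known from striated muscle, had 4 and 0 counts, whereas Rpl3 had 14335 and 13635. Rpl32l, annotated as a processed pseudogene, had 33 and 43 counts, against 8448 and 7768 for Rpl32. Rps27l, a target of p53, was at 86.9 and 93.8 FPKM, or 16.8% and 17.6% of the level of Rps27, and 40.2% and 42.0% of it with principal transcript lengths. In counts Rps27l was at 58.1% and 60.8% of Rps27, and both have a coding length of 252 bases. Rpl7l1, a factor of large subunit assembly, was at 32.5 and 36.4 FPKM, or 5.85% and 6.64% of Rpl7. With principal transcript lengths it was at 7.28% and 8.27% of Rpl7, and in counts at 16.3% and 18.5%.

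Rpl22l1 and its parent changed order with the length used. Rpl22l1 was at 102 and 103 FPKM and Rpl22 at 88.8 and 88.2 FPKM, so that the paralog was at 114% and 117% of the parent. In counts, Rpl22l1 had 1042 and 1017 and Rpl22 had 3856 and 3682. With the principal GENCODE transcripts the paralog was at 23.2% and 23.7% of the parent. The deposited length of Rpl22, 2343 bases, compares with 474 bases for that transcript. Which 3′ end these cells use was not tested.

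Ribosomal protein genes listed outside the members were within the range of the core genes. Fau, which yields the small subunit protein eS30, was at 392 and 398 FPKM, and Rack1, a scaffold on the small subunit, at 622 and 647 FPKM. Rpl36al, a copy of Rpl36a, was at 192 and 191 FPKM, or 53.6% and 54.1% of Rpl36a.

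Other genes of translation were set beside the members from lists made by function. The 16 other TOP mRNAs had a median of 166 FPKM, led by Tpt1 at 1554 and 1567 FPKM. The 28 initiation factor genes all reached 10 FPKM and had 103 FPKM as their median, led by Eif4a1 (348 and 369.5 FPKM), Eif1 (241 and 249 FPKM) and Eif3c (235 and 236 FPKM). Of 40 ribosome biogenesis genes 33 reached 10 FPKM. Their median was 19.3 FPKM, and Npm1 was highest (284 and 288 FPKM), followed by Rrp1 (91.8 and 89.8 FPKM) and Nop10 (74.4 and 65.5 FPKM). The 77 mitochondrial ribosomal protein genes had a median of 24.9 FPKM, and their highest, Mrpl33 at 112 and 117 FPKM, lay below the median of the core genes. Mrps21 (91.9 FPKM in each library) and Mrpl12 (80.5 and 76.4 FPKM) followed. Of 10 Rps6k kinase genes 4 reached 10 FPKM, with Rps6ka4 highest (24.5 and 23.8 FPKM). Among 16 genes of nascent chain handling, the chaperone gene Hspa8 (1059.5 and 1217 FPKM), Rack1 and Btf3 were highest by deposited FPKM. Btf3, a subunit of the nascent polypeptide-associated complex, was at 193 and 192 FPKM. Naca, in the same list, was at 40.9 and 40.6 FPKM, resting on 7145 bases. With principal transcript lengths Naca had a mean of 329 FPKM, above Btf3 at 199 FPKM.

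Of 13 other genes listed for elongation, which include enzymes that act on the factors, 4 reached 10 FPKM: Eif5a, Eef1d, Eef1e1 and Eef1akmt1. Eif5a, which relieves stalled ribosomes, was at 327 and 311 FPKM, and the exchange factor gene Eef1d at 57.0 and 54.8 FPKM. Eef1a2, the muscle and neuron form of eEF1A, was at 0.0264 and 0.110 FPKM, so nearly all eEF1A mRNA was Eef1a1. Eef2k, the kinase that inactivates eEF2, was at 2.96 and 2.64 FPKM. Among 17 genes of mTORC1 and TOP control, Eif4ebp1 (238 and 223 FPKM) and Akt1 (98.1 and 93.2 FPKM) were highest. Rheb (58.6 and 64.0 FPKM) overlapped with Mknk2 (60.6 and 60.4 FPKM), and Larp1 was at 32.5 and 33.6 FPKM.

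**Figure D3:**
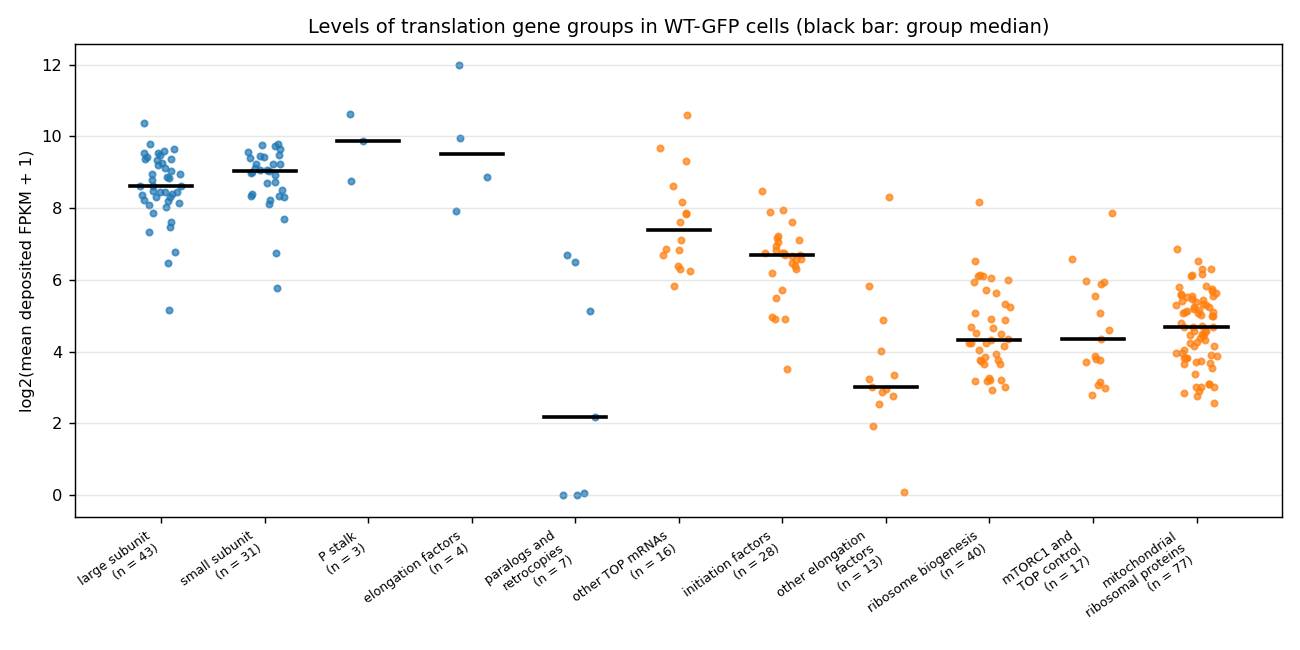
Each point is 1 gene's log2(mean deposited FPKM + 1) over the 2 WT-GFP libraries, by group, with members in blue, other translation genes in orange and the group median as a black bar. The median is 393 FPKM for the large and 525 FPKM for the small subunit, 103 FPKM for initiation factors, 24.9 FPKM for mitochondrial ribosomal proteins and 19.3 FPKM for ribosome biogenesis genes.

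The members differed little between the 2 libraries. Counts of replicate 2 and replicate 1 were compared per gene by a two-sided exact binomial test, whose expected share came from the totals. It covered 12302 genes whose mean count was 10 or more, and calls were made at a Benjamini-Hochberg adjusted p of 0.05. This compares 2 libraries of 1 group and no conditions. Of the 85 members tested 22 differed, 4 higher and 18 lower in replicate 2, and 63 did not pass. Over all genes 14.8% differed, 8.38% higher and 6.38% lower. Members have deep counts, and among the 4408 genes above a mean of 1000 counts 26.7% differed, 14.4% higher and 12.3% lower. Of the 84 members in that range the same 22 differed (26.2%), 4.76% higher and 21.4% lower. The share called in either direction was near that of the 4408 genes, but depth was not matched. The median CPM was 353 over all 88 members and 111 over those 4408 genes. Cell type markers differed as well: of 9 hepatocyte markers 0 were higher and 5 lower in replicate 2, with a median log2 ratio of -0.09, and of 8 progenitor and biliary markers 2 were higher and 2 lower. The macrophage gene Cd68 was higher (log2 ratio 0.40, with an exact adjusted p of 0.00199), while Adgre1 and Clec4f had no counts. Their part in the differences of the members was not tested.

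The size of the differences was small. The log2 ratio of replicate 2 to replicate 1 had an SD of 0.06 over the 84 members above 1000 counts and 0.11 over the 4408 genes above 1000 counts. It was within 0.15 for 83 of these 84 members and for 85.8% of those genes. Depth was not matched here either, and counting error widens the log2 ratio at lower counts. The median log2 ratio was -0.02 over the 85 members tested and 0.01 over all genes tested. With TMM scaling, which moved the median of all genes by -0.01, the median of the members was -0.04 and 27 members differed, 2 higher and 25 lower, beside 14.6%, 6.8% and 7.79% of all genes. Of member calls, 81.8% were lower on total counts and 92.6% with TMM. Over all genes, 785 of 1816 calls were lower on total counts and 958 of 1794 with TMM. With both scalings 20 members were called.

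The largest called differences were those of Rpl7l1, Rps2, Rps27a, Rps9 and Rps10. Rpl7l1 had 1572 and 1691 counts, which gave 0.16 as log2 ratio (adjusted p = 0.0148, exact binomial test). Rps2 had 17333 and 15079 counts, which gave -0.14 (adjusted p = 3.64e-17, exact binomial test). Rps27a (5172 and 4538 counts), Rps9 (8306 and 7359 counts) and Rps10 (4358 and 3888 counts) had log2 ratios of -0.13, -0.12 and -0.11. Eef1a1 had a log2 ratio of only -0.07 but the smallest adjusted p of the members, 6.85e-36 in the exact binomial test, because its counts are the deepest. Rps29, Rps25 and Rpl24 were the other members called higher, with log2 ratios of 0.08, 0.08 and 0.10, and Rps29 and Rps25 were not called with TMM scaling. Eef2 (0.01, with an exact adjusted p of 0.744) and Eef1b2 (0.00, adjusted p = 0.985, same exact test) did not pass.

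**Figure D4:**
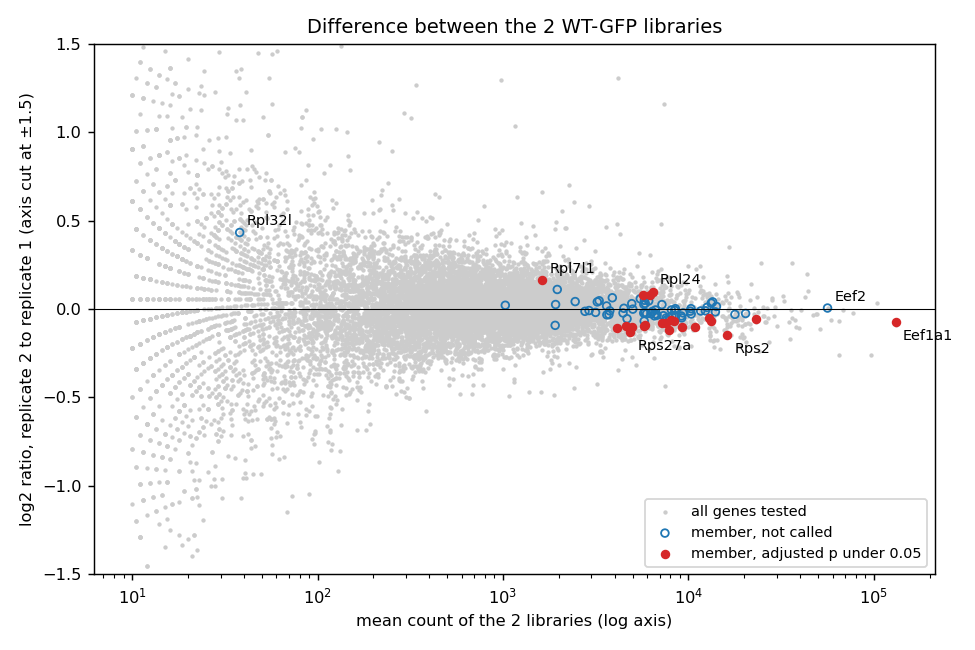
Log2 ratio of replicate 2 to replicate 1 against mean count (log axis) for all genes tested (grey) and the members (blue open circles not called, red called), with the vertical axis limited to 1.5 on either side of 0. All members tested but Rpl32l and Rpl7l1 lie within 0.15 of 0, and 18 of the 22 called members lie below 0.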

How the data were processed

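The kit kept the strand of mRNA, per the labels' protocols. Per gene symbol, raw counts were deposited in 1 table, and counts with FPKM in separate files for WT-GFP replicates 1 and 2, as the authors deposited them. HISAT2 2.2.1.0, mm10 and hg38 are named, without roles, in the submitters' processing notes. The sources used here do not name the read counter, its annotation or its strand setting. Of the 9 numbered count columns, 7 could not be tied to a sample and were not used. Group tests with edgeR therefore had no second group, and only TMM factors came from edgeR 4.0.16. Log2 ratios had 0.5 added to each count. Binomial tests used scipy 1.17.1. Lengths, gene types and positions are from GENCODE M21 (GRCm38), using 1 transcript per gene: protein-coding, best APPRIS rank, then best support level, then lowest transcript number. Start-site sequences are from RefSeq. A count of 0 allows up to 3 counts. The members and lists were chosen with earlier results of these data known. The rule for named genes took the stalk and elongation factor genes, paralogs with parents, the 5 highest and 5 lowest of each subunit, the 5 largest called ratios and the 3 highest of each list; others (such as Rps6, Rps3, Rpl5, Rpl11, Rps29, Rps25, Rpl24 and Eef2k) were added after their values were seen. Some genes that the rule takes are not reported here.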

Additional observations from a re-analysis of the deposited data

How the results depend on the processing

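Levels rest on 2 libraries of 1 group, and SD or range over 2 values is a weak measure of error. The median of the members, 434 FPKM, was 432 and 438 FPKM when either library was left out, 1126 as TPM (another scale), 455 FPKM over members with at least 10 counts, and 435 FPKM with principal transcript lengths. The count at 10 FPKM or more, 84, was 84 without either library and with principal lengths, 85 at a threshold of 1 FPKM and 79 at 100 FPKM. The share of counts, 4.39%, was 4.34 to 4.43% without either library and 4.58% without the 10 most abundant other genes. Over all Rpl genes, stalk and paralogs included, the median of 374 FPKM was 393 FPKM without listed paralogs, 411 FPKM also without Rpl32l, 401 FPKM with principal lengths, and 349 as CPM. Over all Rps genes the median of 522 FPKM was 525 FPKM without paralogs, 504 FPKM with principal lengths, and 340.0 as CPM, where the subunits changed order. The SD of log2 level over core genes, 0.95, was 0.79 with principal and 0.67 with coding lengths. Members differing between libraries numbered 22, 27 with TMM, 20 without a filter and 23 at a minimum of 100 counts. Principal and coding lengths and the removal of Rpl32l were chosen after seeing the data. No paired analysis was possible because the libraries tied to a sample were 2 of the same group.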

Other observations

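The direction of calls between the 2 WT-GFP libraries was counted for other genes of translation, beside 8.38% of all 12302 genes tested called higher and 6.38% lower in replicate 2 (14.4% and 12.3% above a mean of 1000 counts). Of 40 ribosome biogenesis genes 8 were higher, 2 lower and 30 not called, with a median log2 ratio of 0.09 (0.08 with TMM scaling). Of the 77 core ribosomal proteins 3 were higher, 16 lower and 58 not called, with a median of -0.02 (-0.04 with TMM scaling). Of 9 hepatocyte markers 0 were higher and 5 lower, with a median of -0.09; their part in these counts was not tested. Nop56, a protein of the small nucleolar ribonucleoproteins that guide rRNA methylation, was at 62.0 and 74.0 FPKM (0.26 as log2 ratio, with an exact binomial adjusted p of 7.04e-10). The 28 initiation factor genes had 7 higher, 1 lower and 20 not called, with a median of -0.005 (-0.02 with TMM scaling). Among them Eif4a1 was at 0.09 (exact binomial adjusted p of 6.84e-05). Of the 16 other TOP mRNAs 4 were higher, 0 lower and 12 not called, with a median of 0.02 (0.003 with TMM scaling). These lists share genes, and Eif4b was counted as higher both among initiation factors and among other TOP mRNAs. The difference between these lists was not tested, and it is one between 2 libraries of the same group.

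Retrocopies and pseudogenes of members listed in the table under names of their own had counts: Rpl37rt 666 and 623, Rps27rt 155 and 152, Rpl34-ps1 131 and 139, and Rpl31-ps12 9 and 11. Whether these reads arose there or from the parent genes was not tested.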
